A study of Homo sapiens with 30 samples.

Results

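The HLA class I heavy chain genes described here are HLA-B, HLA-C, HLA-E, HLA-F and HLA-G, 5 of the 61471 genes listed in the RNA-seq tables of the human glioblastoma cell lines U87-MG (U87) and U251-MG (U251). They were taken by symbol, and all 5 were listed in both tables and passed the filter on low values in both. Each line was sampled in 5 groups of 3 libraries. Untreated cells had no interferon-gamma (IFN-γ), D3, D14 and D28 cells had been kept in human IFN-γ for 3, 14 and 28 days, and D28WO cells had IFN-γ for 14 days and were then kept for 14 days without it. The labels give both lines as wild type and name a dose of 1 µg/mL in the treatment protocol, while the study's methods give a lower dose. The labels place the collection of the Untreated cells at day 3 and the methods at the start. Both lines are established glioma lines from a repository that are listed as commonly misidentified, and per the methods they were not authenticated again. Replicates were separate culture preparations. The U87 table has 2 columns with identical headers, which were left out, so that U87 has only 2 libraries each at D3 and D14, and 13 libraries of U87 and 15 of U251 were used.

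Class I molecules carry peptides from inside the cell to its surface. A polymorphic or conserved heavy chain pairs with the light chain beta-2 microglobulin (B2M), is loaded with peptide that the transporter TAP brings into the endoplasmic reticulum, and is then read by T cells and natural killer cells. HLA-B and HLA-C are classical heavy chains, which present peptides to CD8 T cells, and HLA-C is also a main ligand of killer-cell immunoglobulin-like receptors. HLA-E, HLA-F and HLA-G are non-classical: HLA-E shows signal peptides of other class I chains to the CD94/NKG2 receptors, HLA-G is known from the placenta and binds the LILRB receptors, and HLA-F can reach the surface without peptide. IFN-γ switches on IRF1 and the class I transactivator NLRC5, which act at elements upstream of class I genes.

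In GENCODE release 44 (GRCh38) all 5 genes are in the major histocompatibility complex on chromosome 6, with HLA-F (ENSG00000204642) at bases 29722775 to 29738528 (+ strand), HLA-G (ENSG00000204632) at bases 29826967 to 29831125 (+ strand), HLA-E (ENSG00000204592) at bases 30489509 to 30494194 (+ strand), HLA-C (ENSG00000204525) at bases 31268749 to 31272130 (- strand) and HLA-B (ENSG00000234745) at bases 31353872 to 31367067 (- strand). The annotation places genes on the opposite strand over HLA-B, HLA-F and HLA-G, among them HLA-F-AS1. Whether reads were counted by strand is not given in the sources used here, so reads of these overlapping genes may be shared. The heavy chains and their pseudogenes are also close copies of each other, and how reads that match several of them were shared out is not given. Differences between the 5 genes are therefore uncertain where reads could have been split between them.

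Upstream sequences from RefSeq (GRCh38.p14, 250 bases before to 50 bases after the start of transcription) were held for 4 of the 5 genes, all but HLA-E. They are shown because elements upstream of class I genes are known to answer to IRF1 and NLRC5. Of the 3 starts listed for HLA-G, the one whose window shared most 8-base words with that of HLA-B was taken. Over the 300 bases the identity was 88.5% between HLA-B and HLA-C, 79.2% between HLA-B and HLA-F, 79% between HLA-C and HLA-G, and lowest, 74.4%, between HLA-F and HLA-G. The lines below give bases 250 to 130 before the start, 5′ to 3′ on the strand of the gene, with matches to an interferon-stimulated response element (ISRE) or a kappa B element in capitals.
HLA-B (chr6:31357309-31357429, - strand): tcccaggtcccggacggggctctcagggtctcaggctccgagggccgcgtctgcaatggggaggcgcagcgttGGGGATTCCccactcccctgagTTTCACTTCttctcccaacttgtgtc
HLA-C (chr6:31272222-31272342, - strand): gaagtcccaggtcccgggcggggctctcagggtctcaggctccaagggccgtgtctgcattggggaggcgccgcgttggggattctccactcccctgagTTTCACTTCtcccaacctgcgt
HLA-F (chr6:29723184-29723304, + strand): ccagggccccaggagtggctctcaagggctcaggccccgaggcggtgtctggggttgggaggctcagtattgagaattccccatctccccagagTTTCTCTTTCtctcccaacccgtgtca
HLA-G (chr6:29827575-29827695, + strand): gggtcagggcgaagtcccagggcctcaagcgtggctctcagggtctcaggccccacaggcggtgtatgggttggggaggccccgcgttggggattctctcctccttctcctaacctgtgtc

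The ISRE was searched as GAAA and GAAA with 2 bases of any kind between them, and the kappa B element as GGGNNTTCC, both on either strand of the 300 bases. Only the HLA-F window held the full ISRE, on the reverse strand, ending 147 bases before the start, and 3.57% of the 35116 windows of all genes hold one. HLA-B and HLA-C held the form shorter by one letter, GAANNGAAA, at the same distance or 4 bases nearer to the start. This form was searched after the sequences had been read and is in 7.66% of all windows. The HLA-G window held neither form. The kappa B element was found in HLA-B alone (6.58% of all windows). The letters CCAAT, as in the site of NF-Y, were in all 4 windows (34.6%), and TGACG, as in a site of CREB proteins, was in HLA-B and HLA-C (24.6%). A match of letters shows no binding, and a missing match shows no lack of it.

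Levels are in TPM, transcript abundances that are scaled to gene length and sum to 1000000 in each library, so that the sequencing depth is unknown. Genes above 0 moved with the groups. In U87 they numbered 24223 to 25459 per library in Untreated and, with no overlap, 27367 to 28453 at D3, 26301 to 27098 at D14, 26096 to 28438 in D28 libraries and 27719 to 28649 in those of D28WO. In U251 they numbered 24450 to 27187 in Untreated, which overlapped with D3 and D28WO but not with D14 (27763 to 29771) or D28 (28955 to 30246). The part of this in the changes against Untreated was not tested. The range of the tables is narrow at the top: 9 genes of U87 and 6 of U251 had a mean of 1000 TPM or more, against 3123 and 3063 genes with 100 TPM or more. What made the range narrow is not given in the sources used here, and levels and ranks of different genes are those of the tables as deposited. Fold changes are differences of log2(TPM + 1), with limma fitted over all tested genes of a line and Benjamini-Hochberg adjusted p-values (adjusted p). The threshold for a call was an adjusted p below 0.05 together with a change of more than 2-fold (1 on the log2 scale) in either direction. The lines are in separate tables and were fitted separately, and no test compares one line with the other. In these bulk samples, fewer expressing cells and less RNA per cell cannot be told apart.

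The glial markers of the lines were VIM, NES, CD44, SOX2, GFAP, S100B, EGFR and CHI3L1. In U87 the defining markers SOX2 (0 to 0.411 TPM) and S100B (0.387 to 3.39 TPM) were at or near 0 in every library, while in U251 all 8 were above 15 TPM. The summed glial markers moved with IFN-γ in U251, from 3831 to 3911 TPM in Untreated to 1604 to 1932 TPM at D3, 2674 to 3083 TPM at D14, 1771 to 2007 TPM at D28 and 2212 to 2282 TPM at D28WO, so that all exposed groups had lower sums than Untreated. In U87 they ranged from 1763 to 2339 TPM, lowest at D28WO. Leukocyte markers, whose cells are rich in class I, summed to 23.6 to 66.0 TPM in U87 and 26.8 to 95.04 TPM in U251, most of it NCAM1, which neural cells also make. PTPRC, CD3E, CD14, ITGAM and CD4, the other 5, stayed under 6 TPM in every library. The endothelial markers PECAM1, VWF and CDH5 summed to at most 3.37 TPM in U87, and in U251 fell from 26.6 to 38.4 TPM in Untreated to 2.45 to 3.46 TPM at D3. The part of these differences in the class I results was not tested.

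The libraries were grouped by their labels, and some levels sit apart from what the labels name. In U87 the D14 libraries, labelled as exposed, were at 134 and 109.8 TPM of the IFN-γ target IRF1, against 136, 130.1 and 134 TPM in Untreated, and the D28WO libraries, labelled as withdrawn, were at 527, 545 and 457 TPM, against 445 and 450.1 TPM at D3. In U251 the D28WO libraries were likewise at 609, 663 and 588 TPM of IRF1, against 514, 721 and 533 TPM at D3 and 137, 142 and 145 TPM in Untreated. The libraries called D28 here are titled D28W, one letter from D28WO, and their other labels give continued treatment. Whether any library carries a wrong label was not tested, and what D14 and D28WO show below holds only if the labels are right.

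HLA-B was the most abundant of the 5 genes by mean in each of the 10 groups, and HLA-G by far the least. In Untreated cells of both lines the order was HLA-B, HLA-C, HLA-E, HLA-F, HLA-G, with no overlap between the libraries of neighbours, although in U251 the means of HLA-C and HLA-E were only 1.08-fold apart. In U87 the order stayed the same in all groups, and only HLA-B and HLA-C at D28 overlapped, where replicate 1 had 496 TPM of HLA-C and 492 TPM of HLA-B. In U251 HLA-F stood above HLA-E at D14, D28 and D28WO, and the libraries of these neighbours overlapped at D3 and D14 and not at D28 or D28WO. With a mean of 1629 ± 73.1 TPM (SD, n = 3) at D28WO, HLA-B ranked 2 among all genes of U251 by mean level.

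**Figure D1:**
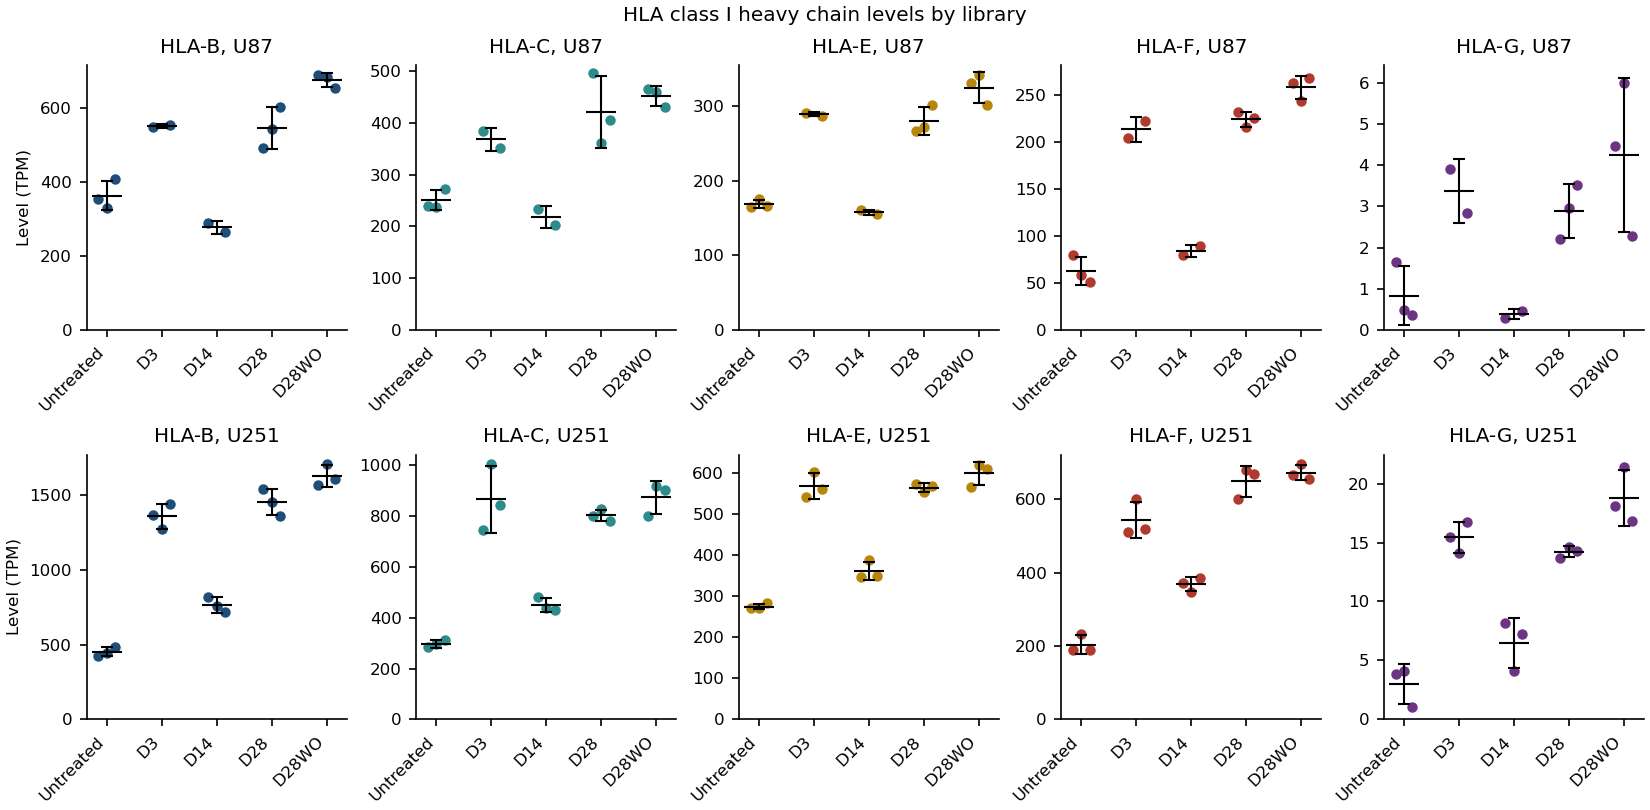
Level of each heavy chain (TPM, vertical axis from 0) by library and group (horizontal axis) in U87 (upper row) and U251 (lower row). Points are libraries, and horizontal bars with whiskers are the mean ± SD (n = 2 for D3 and D14 of U87, otherwise 3). In both lines the D14 points lie below those of D3, D28 and D28WO, and in U87 the D14 points of HLA-B, HLA-C and HLA-E also lie below Untreated, while those of HLA-F and HLA-G overlap with it.

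HLA-B, the classical chain with the highest level, rose less than 2-fold in U87 as fitted, and in U251 more than 2-fold at D3, D28 and D28WO. In U87 it was at 354, 329.7 and 407 TPM in the Untreated libraries, 548 and 555 TPM at D3 and 290.1 and 266 TPM at D14. It was then at 492, 544 and 604 TPM at D28 and 689, 684 and 654 TPM at D28WO. The D3, D28 and D28WO libraries all lay above the Untreated libraries and both D14 libraries below them. The log2 fold change against Untreated was 0.60 (SE 0.10, adjusted p = 0.00188) at D3, 0.59 (adjusted p = 7.4e-04) at D28 and 0.90 (adjusted p = 1.2e-05) at D28WO by limma. At D14 HLA-B was lower than in Untreated by -0.38 on the log2 scale (SE 0.10, limma adjusted p = 0.0451), or -0.53 relative to the median of all genes. This call was not stable, since its adjusted p stayed under 0.05 in 3 of 12 alternatives, and it was lost without Untreated replicate 1 or 3 or either D14 library (0.0714 to 0.257) and with no filter, a fit of the 2 groups alone, quantile normalization or median-ratio size factors (0.0735 to 0.362). With median-ratio size factors the rises at D3 and D28 did not pass either (adjusted p = 0.103 and 0.0666). With quantile normalization the rise at D28WO was 1.32 (limma adjusted p = 9.8e-07), past 2-fold.

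In U251 HLA-B was at 426, 447 and 488 TPM in Untreated, 1372, 1273 and 1439 TPM at D3 and 820.0, 758 and 716 TPM at D14. It was at 1543, 1459 and 1364 TPM at D28 and 1567, 1709 and 1609 TPM at D28WO. Every exposed library lay above every Untreated library, and every D14 library below those of D3, D28 and D28WO. The log2 fold change was 1.58 (SE 0.07) at D3, 0.75 at D14, 1.68 at D28 and then 1.84 at D28WO, with adjusted p by limma between 1.5e-10 and 5.2e-06.

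HLA-C, the classical chain read by killer-cell receptors, followed HLA-B. Its U87 libraries held 240.1, 238 and 273 TPM in Untreated, 384 and 352 TPM at D3 and 233 and 203 TPM at D14. They held 496, 360.1 and 405 TPM at D28 and 466, 458 and 429.7 TPM at D28WO. Again the D14 libraries were below all Untreated libraries and the other exposed groups above them. The log2 fold changes were 0.55 at D3 (SE 0.12, limma adjusted p = 0.00973), -0.20 at D14 (adjusted p = 0.342), 0.73 at D28 (adjusted p = 6.4e-04) and 0.85 at D28WO (adjusted p = 7.7e-05). The adjusted p at D3 missed 0.05 without D3 replicate 2, with no filter and with median-ratio size factors, at up to 0.157.

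In U251 HLA-C was at 283, 295 and 312 TPM in Untreated, 745, 1007 and 845 TPM at D3 and 480.3, 439 and 430.0 TPM at D14. It reached 802, 827 and 780.2 TPM at D28 and 801, 920.1 and 904 TPM at D28WO. D3 replicate 2 had the highest HLA-C of all libraries and, within its group, the lowest HLA-B. In the same library the pseudogene HLA-J was at 219.6 TPM, against 112.1 and 121 TPM in the other two D3 libraries, and the pseudogene HLA-H at 76.1 TPM, against 116 and 125 TPM. The log2 fold change of HLA-C was 1.53 at D3 (SE 0.09), 0.60 at D14, 1.43 at D28 and then 1.56 at D28WO (limma adjusted p at most 3.7e-04).

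HLA-E, the ligand of CD94/NKG2 receptors, had the smallest rise of the 5 in U251 and the smallest standard errors in both lines. Its U87 libraries held 165, 175 and 166 TPM in Untreated, 291 and 287 TPM at D3 and 160.2 and 155 TPM at D14. At D28 they held 266, 272 and 301 TPM and at D28WO 331, 341 and 301 TPM. The log2 fold changes of 0.77 at D3 (SE 0.07, limma adjusted p = 3.4e-05), 0.72 at D28 (adjusted p = 1.6e-05) and 0.94 at D28WO (adjusted p = 1.1e-06) stayed under 2-fold. With quantile normalization the change at D28WO was 1.15, past 2-fold. Both D14 libraries lay below all Untreated libraries, by -0.10 on the log2 scale, a difference that did not pass (adjusted p = 0.468).

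In U251 HLA-E was at 271, 269.8 and 282 TPM in Untreated, 540.1, 601 and 561 TPM at D3 and 346, 387 and 349 TPM at D14. It was at 571, 552 and 568 TPM at D28 and 566, 619 and 609 TPM at D28WO. The log2 fold changes of HLA-E, 1.05 at D3, 1.04 at D28 and 1.12 for D28WO (limma adjusted p at most 4.4e-09) were just past 2-fold. With median-ratio size factors in place of the deposited scaling they were 0.94, 0.92 and 1.09, so the calls at D3 and D28 depend on the scaling. At D14 the log2 fold change was 0.39 (adjusted p = 1.9e-04).

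HLA-F, the chain that can reach the surface without peptide, had the largest fold change of the 5 in U87 on the log2(TPM + 1) scale, while by the ratio of mean TPM, which the addition of 1 does not reduce, HLA-G changed more at D3 and D28WO. HLA-F was at 80.0, 58.2 and 51.1 TPM in Untreated, 204 and 222 TPM at D3 and 79.8 and 88.9 TPM at D14. It was at 232, 216 and 225 TPM at D28 and 262, 244 and 267 TPM at D28WO. The D3, D28 and D28WO libraries were all more than 2-fold above the highest Untreated library, and the D14 libraries overlapped with Untreated. HLA-F passed the threshold at D3 with a log2 fold change of 1.76 (SE 0.14, limma adjusted p = 9.5e-06), at D28 with 1.84 (adjusted p = 2.0e-06) and at D28WO with 2.04 (adjusted p = 4.8e-07). At D14 it was 0.44 (adjusted p = 0.0994). The antisense gene HLA-F-AS1, which overlaps it, also passed the threshold in U87, with 1.11 at D3 and 1.42 at D28WO (limma adjusted p = 0.0351 and 0.00194), at a mean of 15.7 ± 0.803 TPM (SD, n = 2) at D3.

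In U251 HLA-F started higher, at 188, 233 and 190.3 TPM in Untreated, and was at 511, 600.0 and 519 TPM at D3 and 373, 348 and 386 TPM at D14. It was at 600.1, 679 and 669 TPM at D28 and 666, 697 and 656 TPM at D28WO. All exposed libraries were above all Untreated ones. The log2 fold changes were 1.41 at D3 (SE 0.08), 0.86 at D14, 1.67 at D28 and then 1.73 at D28WO (limma adjusted p at most 1.1e-05), and HLA-F-AS1 was at 0.11 at D3 and did not pass.

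HLA-G, known from the placenta, was near the floor of the tables in U87. Its Untreated libraries held 1.65, 0.480 and 0.354 TPM, the D3 libraries 3.91 and 2.83 TPM and the D14 libraries 0.303 and 0.469 TPM. The D28 libraries held 2.20, 2.95 and 3.51 TPM and the D28WO libraries 4.47, 6.001 and 2.29 TPM. All D3, D28 and D28WO libraries lay above all Untreated libraries, though replicate 1 of Untreated was close to the lowest of them. The log2 fold changes were 1.31 at D3 (SE 0.38, limma adjusted p = 0.0375), 1.14 at D28 (adjusted p = 0.0326) and 1.52 at D28WO (adjusted p = 0.00392). At D14 it was -0.34 (adjusted p = 0.646), with libraries that overlapped with Untreated. At values this low the fold changes understate the change of TPM, because 1 is added to each value. The calls at D3 and D28 were lost when no filter on low values was used, with quantile normalization and when only the 2 groups compared were fitted, and also when Untreated replicate 2 or 3 was left out, when either D3 library was left out (D3) and when D28 replicate 2 or 3 was left out (D28), with adjusted p of 0.0747 to 0.215 over these alternatives.

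In U251 HLA-G was at 3.81, 4.11 and 1.02 TPM in Untreated, 15.4, 14.1 and 16.7 TPM at D3 and 8.15, 4.07 and 7.25 TPM at D14. It was at 13.7, 14.6 and 14.3 TPM at D28 and 18.1, 21.4 and 16.8 TPM at D28WO. The D14 libraries overlapped with Untreated and those of the other exposed groups did not. HLA-G had the largest fold change of the 5 in U251, 2.16 at D3 (SE 0.30, limma adjusted p = 6.5e-05), 2.05 at D28 and 2.42 at D28WO (adjusted p = 1.0e-04 and 3.8e-05). Without single libraries it was 1.62 to 2.29 at D28, which overlapped with HLA-B at 1.64 to 1.73. Its lead at D28 therefore depends on single libraries. Its mean at D28WO, 18.8 ± 2.40 TPM (SD, n = 3), was still 31.8-fold below that of HLA-E.

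At D3, D28 and D28WO all 5 genes were higher than in Untreated at an adjusted p under 0.05 in both lines. The size of the rises was not compared between the lines by a test. HLA-F had a higher estimate in U87 than in U251 at each of these times (1.76 and 1.41 at D3). Past the threshold were 2 of 5 in U87, HLA-F and HLA-G, at each of these times, where 5.85% (D3), 6.77% (D28) and 12.8% (D28WO) of all genes tested were higher past it. In U251 5 of 5 passed at each time, against 9.72%, 11.9% and 4.07% of all genes. In both lines all libraries of all 5 genes at these times lay above all Untreated ones, as they did for 34.3%, 26.0% and 36.6% of all genes in U87 and 29.5%, 32.7% and 21.4% in U251. With median-ratio size factors HLA-B (D3 and D28) and HLA-C (D3) of U87 missed the adjusted p. With quantile normalization 5 of 5 passed the threshold at D28WO of U87, with HLA-B at 1.32, HLA-C at 1.11 and HLA-E at 1.15, and 1 of 5 at D3 and D28. By the adjusted p alone, 12.4%, 17.2% and 28.6% of all genes were higher in U87 and 24.9%, 25.9% and 14.3% in U251. Among genes averaging 100 TPM or more, as HLA-B, HLA-C, HLA-E and HLA-F had in both lines, 1.60% in U87 and 3.82% in U251 passed as higher at D3. In U87 HLA-B and HLA-C had the lowest fold changes at D3 and the highest levels. The order was not strictly inverse, since HLA-G, at the lowest level, rose by 1.31 and HLA-F by 1.76. In U251 HLA-B, at the highest level, rose by 1.58, more than HLA-C, HLA-E and HLA-F. The part of the narrow upper range of the tables in these differences was not tested.

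The median of all genes tested was itself above 0 against Untreated, at 0.20, 0.15, 0.19 and 0.25 on the log2 scale at D3, D14, D28 and D28WO of U87, and at 0.13, 0.096, 0.16 and 0.015 in U251. Relative to it, the 5 genes of U87 were higher at D3 by 0.36 (HLA-C) to 1.57 (HLA-F) and at D28WO by 0.60 (HLA-C) to 1.79 (HLA-F). In U251 they were higher by 0.92 (HLA-E) to 2.03 (HLA-G) at D3 and by 1.11 (HLA-E) to 2.41 (HLA-G) at D28WO.

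**Figure D2:**
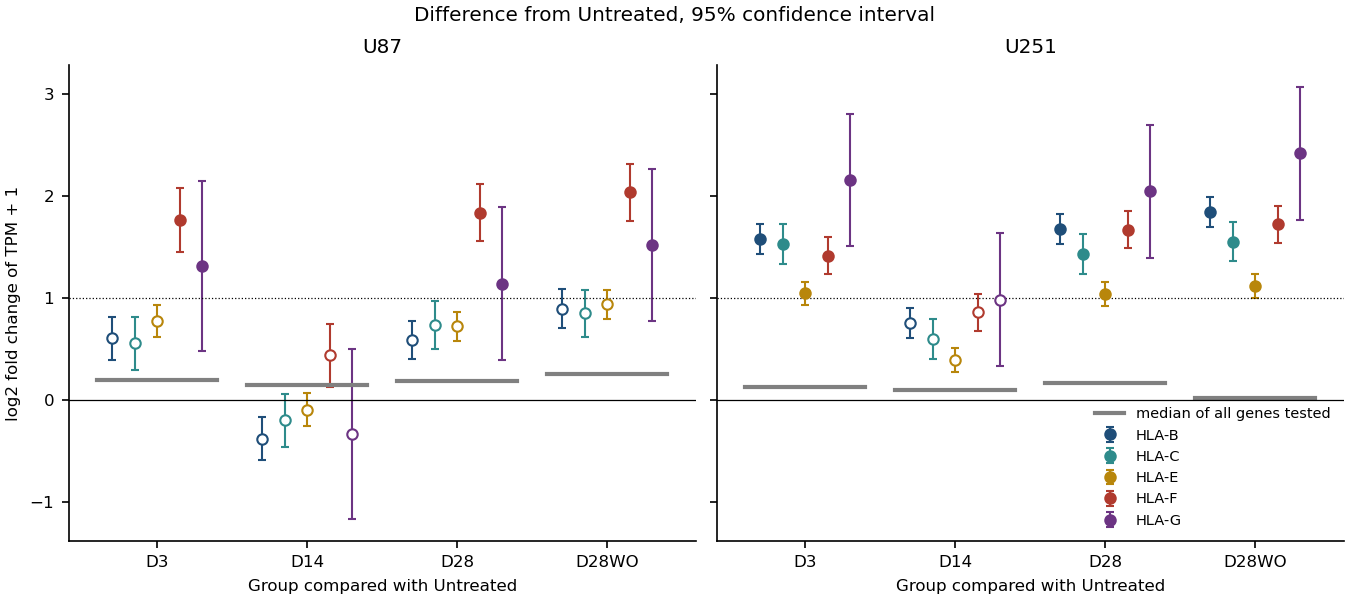
Log2 fold change of TPM + 1 against Untreated (vertical axis) of the 5 heavy chains at D3, D14, D28 and D28WO (horizontal axis) in U87 (left) and U251 (right). Points are limma estimates with 95% confidence intervals, filled where the threshold was passed, grey bars give the median of all genes tested, and the dotted line marks a 2-fold rise. In U87 only HLA-F and HLA-G lie past the dotted line, and at D14 the points of HLA-B, HLA-C, HLA-E and HLA-G lie below 0 in U87 and above 0 in U251.

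D14 stood apart from the other exposed groups in both lines. In the U87 libraries labelled D14 0 of 5 genes were higher than in Untreated at an adjusted p under 0.05, where 4.14% of all genes were (1.89% past the threshold), and HLA-B was lower, where 1.02% were. HLA-F was higher without Untreated replicate 1 (adjusted p = 0.0101). No library of HLA-B, HLA-C or HLA-E at D14 reached the lowest Untreated library, and for 9.94% of all genes both D14 libraries lay below all Untreated ones. In U251 all 5 were higher at D14 by the adjusted p (13.8% of all genes) and 0 of 5 passed the threshold (4.72%), and 4 of 5, all but HLA-G, had no overlap with Untreated (23.7%), with HLA-G closest to the threshold at 0.98 (SE 0.30, limma adjusted p = 0.0337). HLA-G passed the threshold without Untreated replicate 1 or 2 or D14 replicate 2, and its adjusted p missed 0.05 without Untreated replicate 3 or D14 replicate 1 or 3 (0.107 to 0.116) and with no filter, a fit of the 2 groups alone or quantile normalization (0.0729 to 0.154). At an unadjusted limma p under 0.05 all 5 were higher in U251, while in U87 HLA-F was higher and HLA-B lower. The share of all genes at this limit is not given here, so these counts have no background beside them. Against D3, all 5 genes were lower at D14 in both lines by the adjusted p, against 3.32% of all genes in U87 and 12.6% in U251, and every D14 library of all 5 lay below every D3 library, as for 25.7% and 19.4% of all genes. Past the threshold were HLA-F (-1.33, limma adjusted p = 3.9e-04) and HLA-G (-1.65, adjusted p = 0.0459) in U87 (2.05% of all genes) and HLA-G (-1.18, adjusted p = 0.0112) in U251 (3.29%). The HLA-G call in U87 was lost without any one D3 or D14 library (adjusted p = 0.111 to 0.233), with no filter, a fit of the 2 groups alone or quantile normalization (0.0600 to 0.126), and HLA-C missed an adjusted p of 0.05 there without D3 replicate 2 or D14 replicate 3 (at most 0.0691). In a fit of the 2 groups alone HLA-C of U87 missed it too (limma adjusted p = 0.0572). Without D14 replicate 2 of U251 the call of HLA-G there was lost and 0 of 5 passed, and without D3 replicate 1 HLA-C passed as well.

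From D14 the 5 genes were higher again at D28, with IFN-γ kept on. In U87 the log2 fold change from D14 to D28 was 0.97 for HLA-B, 0.94 for HLA-C, 0.82 for HLA-E, 1.40 for HLA-F and 1.48 for HLA-G. HLA-F alone passed the threshold (limma adjusted p = 1.1e-04, 1.78% of all genes against 2.94% by the adjusted p alone), and HLA-G did not reach an adjusted p of 0.05 (0.0554). Without D14 replicate 2 HLA-B and HLA-C passed as well, without D28 replicate 1 HLA-B did, and without D28 replicate 2 HLA-C did. In U251 the range was 0.64 (HLA-E) to 1.07 (HLA-G), all with an adjusted p under 0.05 by limma, and HLA-G alone passed (4.23% of all genes against 11.3% by the adjusted p alone), a call that was lost without any one D28 library or without D14 replicate 2.

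The groups labelled D28WO, given as 14 days without IFN-γ, had no estimate below D28 for any of the 5 genes. In U87 HLA-B was higher at D28WO than at D28 by 0.31 on the log2 scale (limma adjusted p = 0.0286) and HLA-E by 0.21 (adjusted p = 0.0419), at a time when 9.90% of all genes were higher and 8.44% lower. Both were lost without D28 replicate 1 or 2 or D28WO replicate 1 or 2 (adjusted p = 0.0700 to 0.155), with no filter (0.115 and 0.0900) and with median-ratio size factors (0.245 and 0.281), and HLA-E also in a fit of the 2 groups alone (0.103). The 95% intervals of the other three were -0.12 to 0.35 for HLA-C, -0.08 to 0.48 for HLA-F and -0.37 to 1.13 for HLA-G. In U251 no difference passed the adjusted p as fitted (10.3% of all genes were higher and 18.8% lower), and the intervals were 0.02 to 0.31 for HLA-B, -0.07 to 0.32 for HLA-C, -0.03 to 0.20 for HLA-E, -0.13 to 0.24 for HLA-F and -0.28 to 1.02 for HLA-G. With median-ratio size factors HLA-B of U251 was higher by 0.25 (adjusted p = 0.0299), and with quantile normalization the sign of the estimate turned for HLA-C, HLA-E and HLA-F.

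Set against D14, when the exposure of these cells ended, D28WO was higher for 5 of 5 genes past the threshold in U87 (6.30% of all genes), from 1.03 for HLA-E to 1.86 for HLA-G. With median-ratio size factors it was 3 of 5, HLA-C missed it without D14 replicate 3 and HLA-E without D28WO replicate 2. In U251 HLA-B (1.09, limma adjusted p = 1.0e-07) and HLA-G (1.44, adjusted p = 0.00299) passed (1.78%), and HLA-C, HLA-E and HLA-F had an adjusted p under 0.05 at less than 2-fold (10.6%). Between D3 and D28, both with IFN-γ, no difference of the 5 genes passed the adjusted p as fitted in either line, where 0.0262% of all genes were higher and 0.0916% lower in U87 and 8.72% higher and 5.65% lower in U251. The interval of HLA-B was -0.23 to 0.19 in U87 and -0.05 to 0.24 in U251, and that of HLA-F in U251 0.08 to 0.44 (limma adjusted p = 0.0568). That difference of HLA-F had an adjusted p of 0.0259 without D3 replicate 2, 0.0447 without D28 replicate 1 and 0.00991 with quantile normalization.

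The ratio of each heavy chain to HLA-C was compared between exposed and Untreated libraries. In U87 the ratio of HLA-F passed: its TPM divided by that of HLA-C was 0.255 ± 0.0734 (SD, n = 3) in Untreated. The D3 libraries had 0.582 ± 0.0708 (n = 2) and the D14 libraries 0.390 ± 0.0676 (n = 2). The ratio was 0.541 ± 0.0671 (n = 3) in the D28 libraries and 0.573 ± 0.0460 (n = 3) in those of D28WO. All 10 exposed libraries lay above all 3 Untreated libraries, narrowly, with the lowest (D14 replicate 2) at 0.343 and the highest Untreated at 0.333. The mean log2 ratio was higher by 1.06 in exposed libraries (two-sided exact permutation test over 286 splits, p = 0.0035, the smallest it allows, and 0.014 adjusted over 8 such tests). Without any one Untreated library the adjusted p was 0.0606, where the test has fewer splits. In U251 the ratio of HLA-E passed, and it was 0.925 ± 0.0294 in Untreated, 0.662 ± 0.0638 at D3, 0.805 ± 0.0802 at D14, then 0.703 ± 0.0313 at D28 and finally 0.684 ± 0.0194 at D28WO (SD, n = 3 each). All 12 exposed libraries lay below the 3 Untreated ones, with a mean log2 ratio lower by -0.38 (exact permutation test over 455 splits, p = 0.0022, the smallest it allows, adjusted p = 0.014).

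The other 6 ratios did not pass, which does not show that they stayed the same. That of HLA-B to HLA-C differed by -0.06 in U87 (exact permutation test, adjusted p = 0.675) and by 0.18 in U251 (adjusted p = 0.154), where it was above all Untreated libraries in 11 of the 12 exposed libraries. The exception was D3 replicate 2, the library with the high HLA-C. Without it the difference was 0.23 (exact permutation test, adjusted p = 0.00932). Leaving out the only exposed library that was not above Untreated sets the p as low as the test allows, so nothing is concluded from it. HLA-E in U87 differed by 0.09 (adjusted p = 0.495, exact permutation test) and HLA-F in U251 by 0.14 (adjusted p = 0.366). HLA-G to HLA-C differed by 0.45 in U87 (adjusted p = 0.308) and 0.62 in U251 (adjusted p = 0.117, exact permutation tests), with an Untreated SD of 0.60 and 0.81. Without D14 or without D28WO the directions of all 8 differences stayed.

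**Figure D3:**
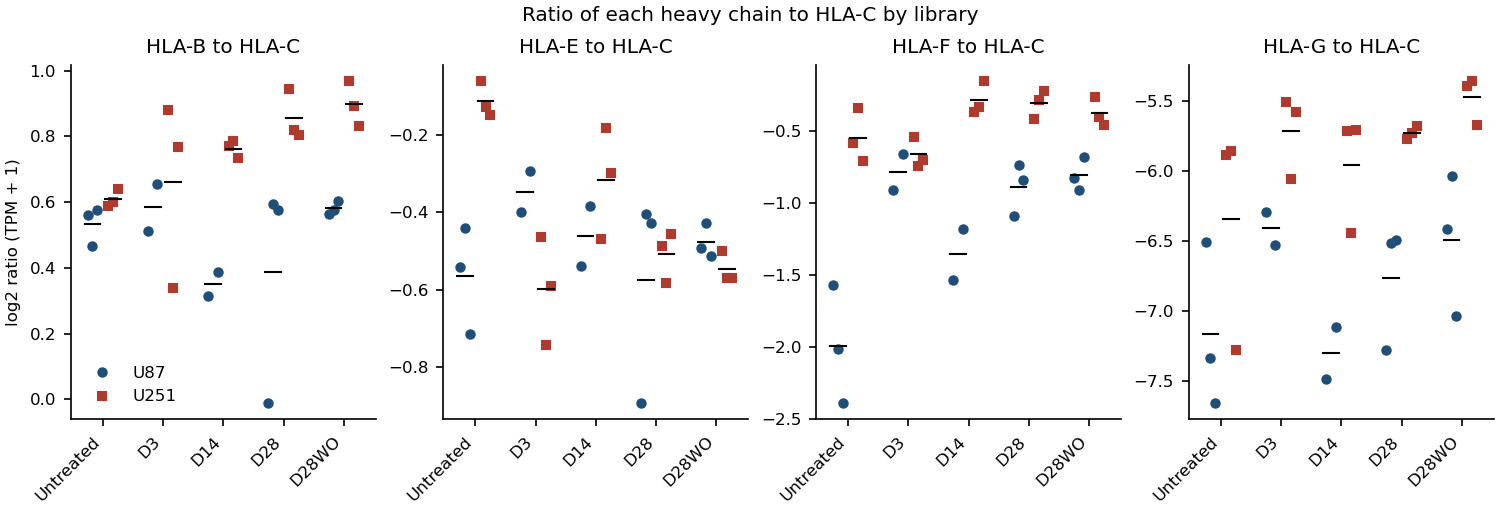
Log2 ratio of HLA-B, HLA-E, HLA-F and HLA-G to HLA-C (TPM + 1, vertical axis, a separate scale in each panel) by library and group (horizontal axis) in U87 (circles) and U251 (squares), with group means as bars. The circles of HLA-F to HLA-C lie higher in every exposed group than in Untreated, and the squares of HLA-E to HLA-C lie lower.

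Across the 28 libraries, with each line centred on its own mean, the 5 genes varied together, as a description of libraries that share groups and scaling. Pearson's r of log2(TPM + 1) was 0.964 between HLA-B and HLA-C, 0.960 between HLA-B and HLA-E, and lowest, 0.870, between HLA-B and HLA-F. Outside the HLA genes, which may share reads, the 3 of 12741 genes most like each were TMEM140 (0.967), WARS1 (0.961) and CEBPB (0.958) for HLA-B, and LAP3 (0.970), WARS1 (0.968) and LGALS17A (0.967) for HLA-C. For HLA-E they were the peptide transporter subunit TAP1 (0.983), LGALS17A (0.982) and IFI35 (0.981). For HLA-F they were TRIM69 (0.982), GBP4 (0.981) and RTP4 (0.980). For HLA-G, at lower r, they were GBP1P1 (0.923), the immunoproteasome subunit PSMB9 (0.918) and TAP1 (0.915).

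In both lines all libraries of the light chain and of the peptide transporter subunit TAP1 at D3, D28 and D28WO lay above all those of Untreated and D14. B2M, the light chain, was at 1037, 876 and 930.4 TPM in Untreated U87, 2199 and 2577 TPM at D3, 871 and 951 TPM at D14, and 3344, 3169 and 2891 TPM at D28WO. TAP1 was at 52.9, 52.7 and 44.04 TPM, 145 and 154 TPM, 59.8 and 51.8 TPM and 171, 183 and 169.7 TPM in the same groups. Their D14 libraries overlapped with Untreated, as did those of HLA-F. Of the 10 genes for the light chain, peptide loading and trimming (B2M, TAP1, TAP2, TAPBP, TAPBPL, CALR, CANX, PDIA3, ERAP1 and ERAP2), 3 were higher past the threshold at D3 in U87 (B2M, TAP1 and the tapasin-like TAPBPL), where 5.85% of all genes were, with a median log2 fold change of 0.74 against 0.20 for all genes. At D14 it was 0 of 10 with a median of 0.02, and at D28WO 3 of 10 with 0.77, where 1.89% and 12.8% of all genes were higher and their medians were 0.15 and 0.25. The chaperones CALR and CANX were lower at D3, by -0.35 and -0.32 (limma adjusted p = 0.0425 and 0.0382). Of the transporter's subunits, TAP1 rose by 1.57 at D3 and TAP2 by 0.82, less than 2-fold (limma adjusted p = 2.4e-06 and 6.3e-05).

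In U251 4 of the 10 were higher past the threshold at D3 (B2M, TAP1, TAP2 and TAPBPL), 2 at D14 (TAP1 and TAP2), 4 at D28 and 4 at D28WO. Of all genes 9.72%, 4.72%, 11.9% and 4.07% were higher past it. The list's medians were 0.45, 0.12, 0.50 and 0.62 on the log2 scale, against 0.13, 0.096, 0.16 and 0.015 for all genes. TAP1 was at 97.7, 88.5 and 96.1 TPM in Untreated, 380.3, 416 and 409.6 TPM at D3, 195, 209 and 207 TPM at D14 and 452, 494 and 478 TPM at D28WO. Its D14 libraries lay between Untreated and the other groups, as those of HLA-B, HLA-C, HLA-E and HLA-F did. CALR was lower at all 4 times, by -0.68 at D3 and -0.86 at D28WO (limma adjusted p = 1.7e-05 and 3.1e-06).

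Among 12 transcription factors of class I promoters, NLRC5 and IRF1 passed the threshold as higher at D3, D28 and D28WO in both lines, and no other of the 12 did. Of all genes 5.85%, 6.77% and 12.8% were higher past it at these times in U87 and 9.72%, 11.9% and 4.07% in U251, so that 2 of 12 was near that share at D28WO of U87 and D28 of U251. In U87 NLRC5, the class I transactivator, was at 66.9, 90.2 and 60.3 TPM in Untreated, 219 and 202 TPM at D3, 95.7 and 85.0 TPM at D14 and 231, 211 and 221 TPM at D28WO. IRF1, which binds the ISRE, was at 136, 130.1 and 134 TPM, 445 and 450.1 TPM, 134 and 109.8 TPM and 527, 545 and 457 TPM in these groups. In U251 both factors passed at D14 too, NLRC5 with 1.54 and IRF1 with 1.08 (limma adjusted p = 1.9e-08 and 1.2e-05). RFX5, the DNA-binding partner of NLRC5, was higher by 0.83 in U87 and 0.79 in U251 at D3 (limma adjusted p = 1.2e-04 and 2.9e-06), under 2-fold. The median of the 12 was 0.28 in U87 and 0.28 in U251 at D3, against 0.20 and 0.13 for all genes.

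**Figure D4:**
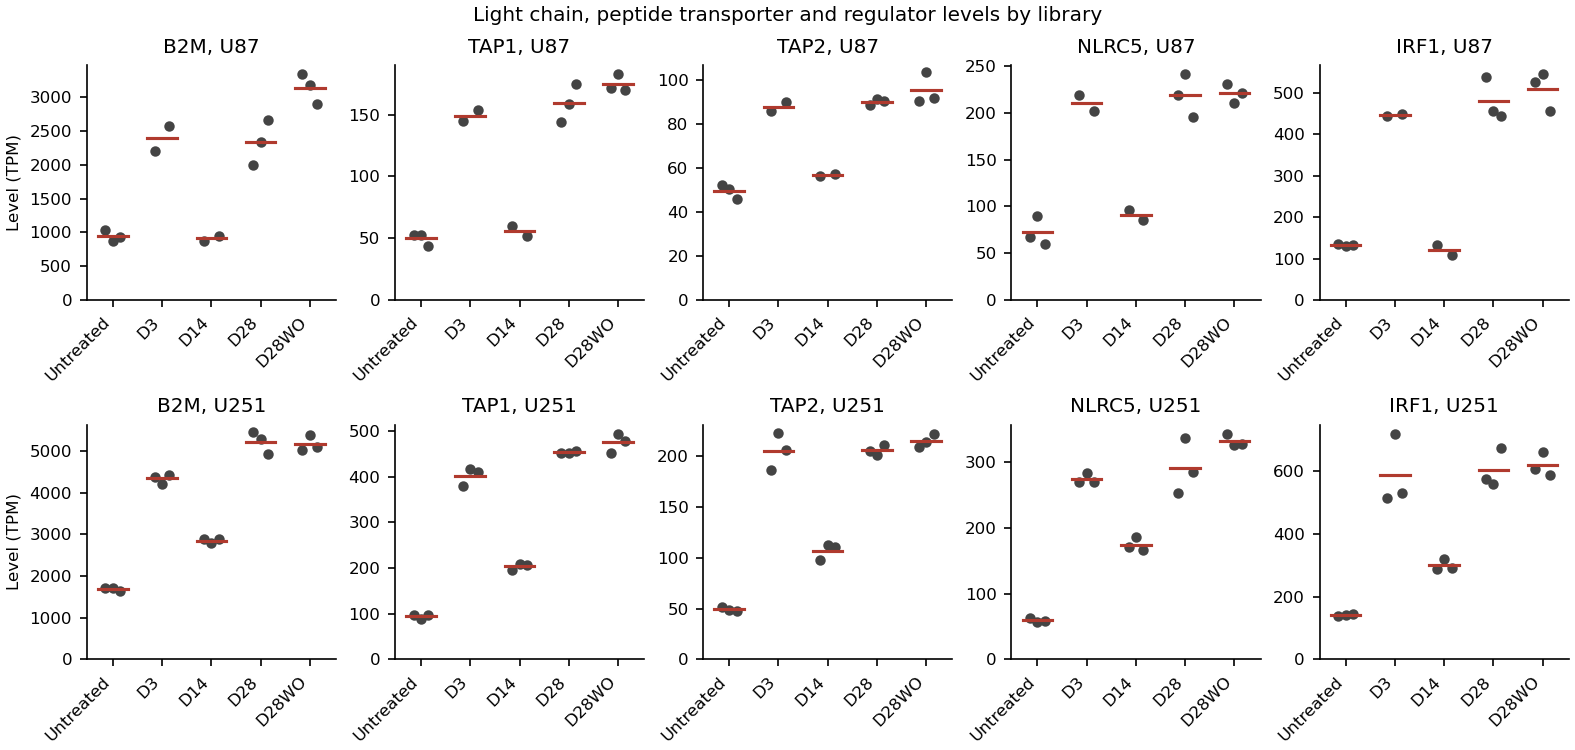
Level (TPM, vertical axis from 0) of the light chain B2M, the peptide transporter subunits TAP1 and TAP2, and the regulators NLRC5 and IRF1 by library and group (horizontal axis) in U87 (upper row) and U251 (lower row), with group means as bars. In U87 the D14 points lie near Untreated, and in U251 they lie above Untreated.

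The class I-like heavy chains, which pair with other ligands or with none, did not move as one. Of 8 listed (MICA, MICB, MR1, HFE, FCGRT, CD1D, PROCR and AZGP1), 7 were tested in U87 and 8 in U251. At D3, MICB and FCGRT were higher past the threshold in U87, and in U251 1 of 8 was higher (MICB) and 1 lower (AZGP1). Of all genes 5.85% in U87 and 9.72% in U251 were higher, a share close to that of the list in U251. The share of all genes lower past the threshold is not given here, so the AZGP1 call has no background beside it. AZGP1 had a mean of 3.50 ± 0.399 TPM (SD, n = 2) at D3 of U87 against 0.180 ± 0.311 TPM (n = 3) in Untreated, and as it passed the filter on low values only through the groups where it was high, no call is given for it there. MICB, a ligand of the NKG2D receptor, rose by 1.41 in U87 and 2.00 in U251 (limma adjusted p = 1.7e-05 and 6.7e-08). MICA, its close relative, was at -0.27 and -0.06 and did not pass (adjusted p = 0.0779 and 0.434). FCGRT, the neonatal Fc receptor, rose by 1.31 in U87 and was lower by -0.56 in U251 (limma adjusted p = 5.6e-05 and 7.5e-04), a difference between the lines that was not tested. The list's median at D3 in U251 was -0.25, against 0.13 for all genes.

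Of 20 class I pseudogenes and neighbouring transcripts, 11 were tested in U87 and 12 in U251, and 2 and 5 were higher past the threshold at D3, as were 5.85% and 9.72% of all genes. HCP5, a non-coding gene near HLA-B, had the largest fold change of the list in U87. It was at 0.475, 1.78 and 1.14 TPM in Untreated, 35.3 and 38.9 TPM at D3, 3.20 and 1.41 TPM at D14, 44.9, 39.2 and 48.2 TPM at D28 and 49.6, 47.8 and 46.7 TPM at D28WO. On the log2 scale it changed by 4.21 at D3 (SE 0.27, limma adjusted p = 1.5e-06) and 0.63 at D14 (adjusted p = 0.194), while in U251, where it started at 49.8, 54.5 and 34.7 TPM, it was 1.73 at D3 and 1.18 at D14 (adjusted p = 1.3e-07 and 2.2e-05). HLA-H, a pseudogene close in sequence to the heavy chains, rose by 0.77 in U87 and 1.65 in U251 at D3 (limma adjusted p = 0.00123 and 2.5e-06). Receptors of class I on leukocytes (LILRB1, LILRB2, KLRD1, KLRC1, KIR2DL4 and CD8A) were mostly too low to test, with 3 of 6 tested in U87 and 2 in U251. KIR2DL4 was listed at 0 in every Untreated and D14 library of U87 and had a mean of 1.07 ± 0.269 TPM (SD, n = 2) at D3, and since it passed the filter on low values only through the groups where it was high, no call is given. KLRD1 and KLRC1 did not pass at D3 in either line.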

How the data were processed

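RNA was sequenced in 30 libraries of U87-MG and U251-MG cells. Per the labels and the study's methods, the authors checked reads with FastQC, trimmed them with Trim Galore, aligned them to GRCh38 with STAR, counted them with featureCounts and normalized them with edgeR, and they deposited TPM values in 1 table for each line. How TPM was computed is not given in the sources used here. The deposited TPM add up to 1000000 in every library, so depth is unknown and no interval for counting error is given. The 2 U87 columns with identical headers entered no analysis. No 2 libraries held identical values.

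On the log2(TPM + 1) scale, all genes averaging 0.5 TPM or more in a line (22918 in U87, 23667 in U251) entered a fit by limma 3.58.1 (R 4.3.3, eBayes with a trend), 1 fit for the 5 groups of each line, and p-values were Benjamini-Hochberg adjusted over all of them. Ratios to HLA-C were compared by two-sided exact permutation tests, adjusted over 8. The limma fit, and not the ratio tests, was tested on simulated data with noise drawn independently for each gene. Genes named are the 5 heavy chains, members of the lists, and the 3 genes most like each heavy chain (Pearson's r, mean of at least 5 TPM in both lines), here without other HLA genes because they may share reads. A transcription factor and a leukocyte marker were removed from the lists and are not reported here. The heavy chains and lists were chosen with earlier results of these data known. The alternatives were a pseudocount of 0.1, no filter or a filter at 1 TPM, quantile normalization, median-ratio size factors, fits of the 2 compared groups, a replicate block, the adjusted p as the only criterion, ratios without D14 or D28WO, and leaving out each library. Upstream sequences are from RefSeq and gene positions from GENCODE release 44. Alignments were made with Biopython 1.88.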

Additional observations from a re-analysis of the deposited data

Results flagged for a closer look

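At D14 the same comparison with Untreated had estimates of opposite sign in the 2 lines for HLA-B, HLA-C, HLA-E and HLA-G. HLA-B differed by -0.38 on the log2 scale in U87 and 0.75 in U251, HLA-C by -0.20 and 0.60, and HLA-E by -0.095 and 0.39. In U87 HLA-C and HLA-E did not pass (limma adjusted p = 0.342 and 0.468), and HLA-B (0.0451) stayed under 0.05 in 3 of 12 alternatives. HLA-G differed by -0.34 and 0.98, with overlap in both lines. For HLA-B, HLA-C and HLA-E both D14 libraries of U87 lay below all 3 Untreated libraries, and all 3 D14 libraries of U251 lay above theirs. The difference between the lines was not tested, because the lines were fitted separately, and in U87 it rests on 2 libraries. Single libraries that stand apart were not tested for in these groups of 3 or fewer.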

How the results depend on the processing

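The counts are of the 5 heavy chains past the threshold. In U87, higher than Untreated were 2 at D3, with 1 under no filter, quantile normalization or a fit of the 2 groups compared, and 1 to 2 without single libraries. The same values held at D28. At D28WO they were 2, with 5 under quantile normalization. For D14 against D3, 2 were lower in U87, with 1 under no filter or the 2-group fit and 1 to 2 without single libraries. Under quantile normalization and without D14 replicate 2 it was 2 with HLA-B in place of HLA-G. For D28 against D14 in U87, 1 was higher, with 2 at a pseudocount of 0.1 or quantile normalization and 1 to 3 without single libraries, and for D28WO against D14 it was 5, with 3 under median-ratio size factors. In U251, D14 against Untreated gave 0, with 1 at a pseudocount of 0.1 and 0 to 1 without single libraries. D14 against D3 gave 1 lower, with 2 under quantile normalization and 0 to 2 without single libraries, D28 against D14 gave 1 higher, with 0 at a pseudocount of 0.1, no filter or quantile normalization and 0 to 1 without single libraries, and D28WO against D14 gave 2, with 1 under quantile normalization, 3 under median-ratio size factors and 2 to 3 without single libraries, HLA-C passing without D14 replicate 1 or D28WO replicate 1. By the adjusted p alone, higher against Untreated were 5 in U87 at D3, D28 and D28WO and 5 in U251 at D14, and lower was 1 in U87 at D14. The same rule gave 5 lower for D14 against D3 in both lines, 4 (U87) and 5 (U251) higher for D28 against D14, 5 in U251 for D28WO against D14 and 2 in U87 for D28WO against D28. Where a group was left with 1 library, it was taken to vary like the others. The counts at D3, D28 and D28WO of U251 against Untreated stayed within 1.5-fold under each alternative. Causes of these shifts were not tested.

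Deviations of same-numbered libraries correlated by -0.058 to 0.0472 in U87 and -0.0375 to 0.048 in U251. Those of differently numbered libraries correlated by -0.053 to 0.058 and -0.0511 to 0.0417. The main fit used no pairing, and whether libraries of different groups share a culture was not tested. With the replicate number as a block, the adjusted p of HLA-B at D14 (0.0562) and of HLA-E at D28WO against D28 (0.0621) missed 0.05 in U87, HLA-F of U251 at D28 against D3 passed it (0.0407), D14 against D3 in U87 gave 1 lower in place of 2, and D28 against D3 in U87 turned sign near 0 for HLA-B (0.0074) and HLA-F (-0.00064). No other count moved by over 1.5-fold with the block.

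Signs also turned in small differences that did not pass. For D28WO against D28 in U251, quantile normalization gave -0.0035 for HLA-C, -0.0062 for HLA-E and -0.14 for HLA-F. Without single libraries, D28 against D3 ranged -0.092 to 0.056 for HLA-B and -0.35 to 0.0075 for HLA-G in U87, and -0.20 to 0.016 for HLA-C and -0.043 to 0.034 for HLA-E in U251, and D28WO against D28 ranged -0.0027 to 0.086 for HLA-F. The HLA-F ratio in U87 was 0.86 to 1.27 without single libraries, with an adjusted p of 0.0606 without any 1 Untreated library, where the test has fewer splits. The HLA-B ratio in U251 was 0.17 to 0.23, past 0.05 only without D3 replicate 2, the only exposed library that was not above Untreated. Sequencing depth is unknown, and HLA-G in U87 is limited by its low level.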
